A study of Rattus norvegicus with 65 samples.

Results

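The livers of 3 male rats given a short course of 1,4-dioxane were compared with those of 3 control rats of the same set, by genome-wide expression array. These 6 arrays, 1 rat each, are those whose titles name the short 1,4-dioxane group and the control group of the nongenotoxic set, out of 65 arrays in the whole study. All rats were Sprague-Dawley males aged 6 weeks with free access to food and water and a 12/12 h light and dark cycle, and RNA came from frozen liver. The short group is labelled 3 hours and received 1,4-dioxane, which the labels class as a nongenotoxic carcinogen. The controls are labelled untreated liver, with no time given. Doses, route and vehicle are not given in the sources used here, so the compound, the handling and the time of autopsy cannot be told apart in this comparison. Further groups of 3 rats serve for comparison: short clofibrate and short ethionine (both 3 hours) and long 1,4-dioxane (labelled 72 hours, repeated dosing). The treatment text gives 24 hours for autopsy, which does not match those labels, so the words short and long are used here.

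1,4-Dioxane is a cyclic ether used as a solvent, and it causes liver tumours in rodents after prolonged exposure. The liver takes up and oxidises such solvents through cytochrome P450 enzymes. Foreign chemicals are also sensed by nuclear receptors such as CAR and PXR (receptors that switch on oxidation, conjugation and export genes), by the aryl hydrocarbon receptor, which drives Cyp1a1, and by NRF2, which drives antioxidant genes. The same hepatocytes follow daily and hormonal programmes: glucocorticoids and fasting raise genes of glucose production, pulsatile growth hormone keeps male-type secretory genes on, and the circadian clock moves many genes through the day.

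The values are log2 array signals, so a difference of 1 is a doubling. A gene was called when its adjusted p was under 0.05 in limma (a linear model over all genes, with Benjamini-Hochberg adjustment). Of 10660 genes tested, 616 (5.78%) were called: 202 (1.89%) rose and 414 (3.88%) fell in the 1,4-dioxane rats. Among them 62 rose and 53 fell by over 2-fold, and the median size of a called difference was 0.60. The median over all genes was -0.02. Groups of 3 against 3 did not overlap in 3044 genes (28.6%), including 592 of the 616 called.

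**Figure D1:**
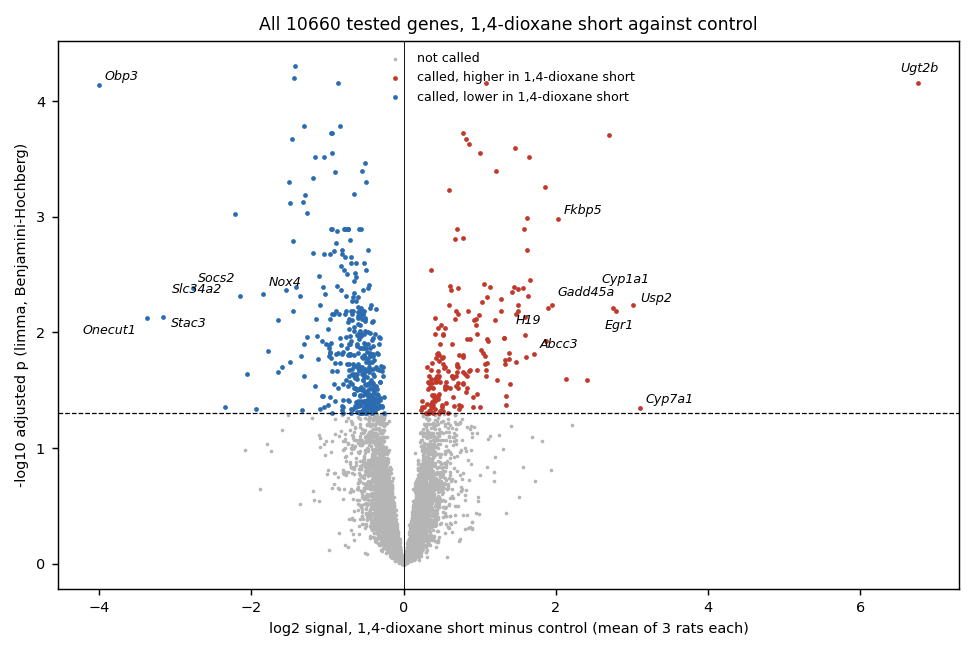
Each point is 1 of 10660 genes: the horizontal axis gives the log2 difference of 1,4-dioxane short minus control (means of 3 rats each) and the vertical axis -log10 of limma's adjusted p. Points above the dashed line (adjusted p of 0.05) were called, 202 higher in red and 414 lower in blue; Ugt2b lies far to the right at 6.76 and Obp3 far to the left at -4.00.

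Control rat 1 stood apart from the other two control rats. It differed by over 1 log2 unit from control rat 2 in 120 genes and from control rat 3 in 121 genes, whereas rats 2 and 3 differed that much in 4. The 1,4-dioxane rats differed from each other in 74 to 202 genes. Correlations between arrays were 0.986 to 0.996 within the controls, 0.982 to 0.990 within the 1,4-dioxane group and 0.968 to 0.983 between the groups. Without control rat 1 the count of called genes was 578, of which 443 were shared with the 616. It was 243 without control rat 2 and 205 without control rat 3; it was 270, 399 and 443 without 1,4-dioxane rats 1, 2 and 3. The difference in signal between the 3' and 5' probe sets, which grows as RNA degrades, was 0.50 to 0.91 in the controls and 0.38 to 0.50 in the 1,4-dioxane rats for Gapdh, and 2.96 to 3.19 against 2.18 to 2.75 for beta-actin. The groups did not overlap in either, and the part this plays in the results was not tested.

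The liver identity of the samples held. Of 23 hepatocyte markers 1 rose, Tat, an amino acid breakdown enzyme also induced by glucocorticoids (1.34), and 1 fell, Foxa1, a liver transcription factor (-1.04, and -0.54 without 1,4-dioxane rat 1). The mean over these markers was 12.9 to 12.96 in control rats and 12.94 to 13.03 in the 1,4-dioxane rats. Albumin differed by at most 0.014 on either of its probe sets. In bulk liver, fewer cells of a type and less RNA per cell cannot be told apart. Of 7 cholangiocyte markers (bile duct cells) Epcam (0.83) and Ggt1 (0.41) rose, and the mean over all 7 was 7.95 to 8.06 in controls and 8.28 to 8.46 after 1,4-dioxane. Of 11 leukocyte markers Coro1a, an actin-binding protein of blood cells, fell (-0.72), and the mean was 6.69 to 6.87 in controls and 6.45 to 6.51 after 1,4-dioxane. Of the 6 fits that each leave out 1 rat, 2 called Epcam and none called Ggt1 or Coro1a. The control mean of Ggt1, 6.06, lay below the median signal of 6.21 used to filter genes. The means of those 2 lists separated the groups, and their part in the other results was not tested.

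Of the called genes whose groups did not overlap and whose rats lay within 2 log2 units of each other in each group, the 12 highest were led by Ugt2b, Cyp1a1 and Fkbp5. Ugt2b, named for a family of enzymes that attach glucuronic acid to steroids and drugs, read 6.81, 6.85 and 6.10 in the control rats and 13.32, 13.39 and 13.33 in the 1,4-dioxane rats. This difference of 6.76 ± 0.92 (standard error; 109-fold; adjusted p = 6.9e-05, limma) was the widest of all genes. The level was not tied to this compound alone: all 18 treated rats of the nongenotoxic set were high. Over the 65 rats the values fell into a lower group of 11 rats, up to 9.58, and a higher group of 54 rats, from 12.66. The lower group held 4 of the 6 control rats of the study and 7 of its 59 treated rats. Control rats of the genotoxic set read 8.14, 13.38 and 13.30. The sets may have been normalized apart, so levels across them are given as a description. Whether the nongenotoxic controls or the treated rats are the unusual ones cannot be told apart with these 3 control rats. Probe sets of this family, and of the Obp3, Sult2a6 and Cyp2c7 families below, can also bind close relatives.

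Cyp1a1, the oxidase induced through the aryl hydrocarbon receptor, read 5.93, 6.67 and 6.26 in control rats and 7.86, 9.44 and 9.81 in 1,4-dioxane rats. The rats did not overlap, and the difference was 2.75 ± 0.60 (6.71-fold, adjusted p = 0.0062). It was the one called gene among 6 aryl hydrocarbon receptor targets, whose median was 0.08. Fkbp5, a chaperone of the glucocorticoid receptor and itself induced by glucocorticoids, read 8.14, 8.83 and 8.89 against 10.20, 10.84 and 10.90. All 3 treated rats lay more than 1 unit above the highest control, with a difference of 2.03 ± 0.36 (4.08-fold, adjusted p = 0.0011). Gadd45a, a growth arrest and DNA damage gene, read 8.84, 9.13 and 9.18 in controls and 11.98, 10.65 and 10.36 after 1,4-dioxane. Treated rat 1 was the highest, and the difference of 1.95 ± 0.42 (3.86-fold, adjusted p = 0.0057) became 1.46 without it (adjusted p = 0.065, limma).

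H19, an imprinted long noncoding RNA, read 7.17, 6.77 and 6.95 in control rats and 8.98, 9.40 and 8.21 in treated rats, a rise of 1.90 ± 0.41. Lpin1, a phosphatidate phosphatase of lipid synthesis that is induced in fasting, read 9.80, 9.89 and 10.29 against 11.92, 11.65 and 12.02. It rose by 1.87 ± 0.45, with an adjusted p of 0.052 in limma without control rat 2. Fmo2, a flavin-containing monooxygenase, rose by 1.86 ± 0.31 from 5.57, 5.59 and 5.26 to 7.56, 6.66 and 7.78. Abcc3, which exports conjugates from the hepatocyte into blood, read 7.04, 6.65 and 6.24 in controls and 7.95, 8.43 and 8.70 in treated rats. Its rise of 1.72 ± 0.43 (3.29-fold, adjusted p = 0.015) had adjusted p of 0.063, 0.054 and 0.10 without 1,4-dioxane rat 3, control rat 2 and control rat 3. The remaining 4 of the 12 highest were Mfsd2a (1.65), a lysophospholipid transporter, Rapgef5 (1.65), an exchange factor for Rap GTPases, Igfbp2 (1.63), a binding protein of insulin-like growth factors, and Acer2 (1.63), a ceramidase. In Mfsd2a control rat 1, at 10.41, lay closer to the treated rats (10.85 to 11.39) than to the other controls (9.18 and 8.91).

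Among the 12 lowest genes by the same rule the widest fall was in Obp3. Obp3, a secreted lipocalin of the male rat alpha-2u-globulin cluster, read 12.17, 13.12 and 13.00 in control rats and 9.12, 8.72 and 8.44 in the 1,4-dioxane rats. It fell by 4.00 ± 0.55 (16-fold, adjusted p = 7.2e-05), and no treated rat came within 3 units of a control. Slc34a2, a sodium and phosphate cotransporter, fell by 2.15 ± 0.45 (4.43-fold, adjusted p = 0.0049) from 8.17, 9.14 and 8.54 to 6.25, 5.92 and 7.24. Nox4, an NADPH oxidase, read 7.41, 8.41 and 8.47 against 6.12, 6.50 and 6.13, a fall of 1.84 ± 0.39. The unnamed locus LOC102549203 fell by 2.22 ± 0.39, from 8.65 to 8.94 in controls to 6.13 to 7.40 after 1,4-dioxane. Cldn2, a tight junction claudin, read 9.54, 10.16 and 10.30 against 7.28, 8.49 and 8.89. Its fall of 1.78 ± 0.44 was not called without 1,4-dioxane rat 1, control rat 2 or control rat 3 (adjusted p of 0.13, 0.064 and 0.082, limma).

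Slc6a6, the taurine transporter, read 7.76, 9.58 and 9.67 in control rats and 7.31, 7.35 and 7.39 in treated rats. Here control rat 1 lay 0.41 above the treated mean and the other controls 2.23 and 2.32 above it. The fall of 1.65 ± 0.44 became a difference of -2.27 without control rat 1, and was not called when any of the other 5 rats was left out, at adjusted p of 0.053 to 0.16 (limma). Zfp37, a zinc finger protein, fell by 1.65 ± 0.38, with an adjusted p of 0.055 (limma) without control rat 3. Fer1l5, a ferlin, fell by 1.51 ± 0.25, and Irgm, an immunity-related GTPase, fell by 1.49 ± 0.26 from 8.27, 9.12 and 9.27 to 7.26, 7.29 and 7.65. Dipk2a, a protein of the secretory pathway with a kinase-like domain, fell by 1.55 on its brighter probe set, whereas the other tested probe set gave 0.15 and was not called. Jchain, which joins antibodies made by plasma cells, fell by 1.49 ± 0.38 from 6.85, 7.19 and 7.64 to 5.65, 5.85 and 5.71, and was not called without 1,4-dioxane rat 1, control rat 2 or control rat 3 (adjusted p of 0.069, 0.061 and 0.12, limma). The clock factor Npas2, also among the 12 lowest, is given with its list.

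**Figure D2:**
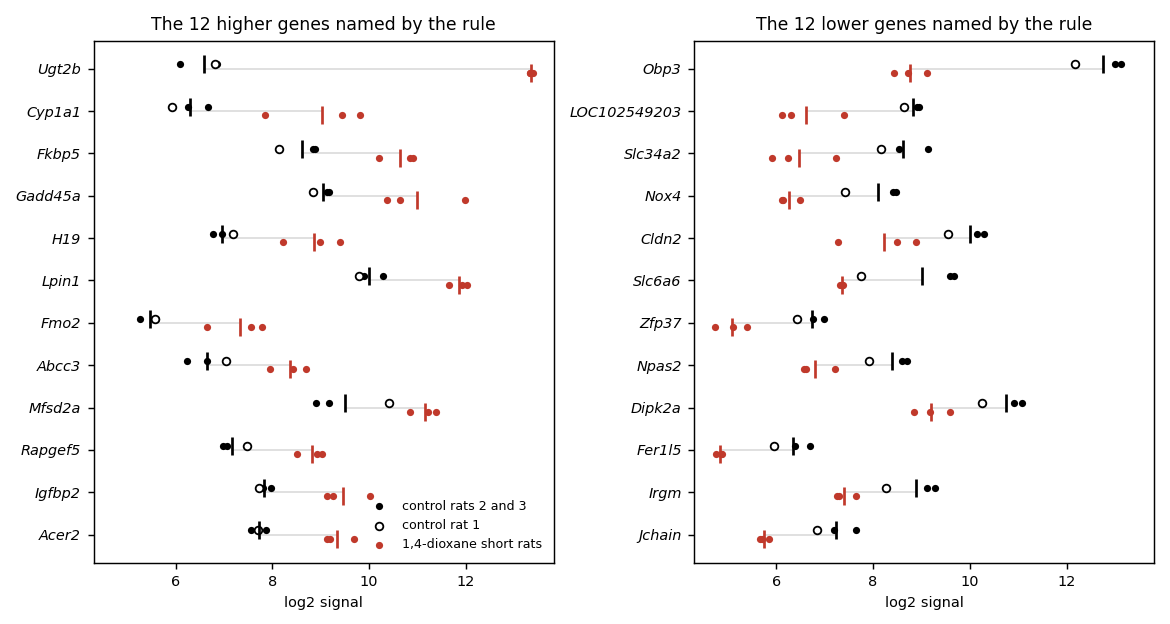
Log2 signal (horizontal axis) of each rat for the 12 highest and 12 lowest genes that were called, without overlap of the groups and with rats of a group at most 2 units apart; black points are control rats (control rat 1 open), red points 1,4-dioxane short rats, and ticks are means of 3. In Slc6a6 control rat 1 (7.76) sits near the treated rats (7.31 to 7.39), while in Fkbp5 and Obp3 all 3 controls lie on one side.

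Counts of called members in the gene lists below stand against 1.89% of all genes higher and 3.88% lower. Of 65 called listed genes 16 were called whichever of the 6 rats was left out: Cd36, Clock, Cyp1a1, Fkbp5, Hsph1, Id2, Igfbp1, Igtp, Il6r, Obp3, Pdgfrb, Socs2, Sult1b1, Sult2a6, Ugt2b and Ugt2b1. The other 49 lost the call in at least 1 of these fits.

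Of 20 tested targets of CAR and PXR 7 rose and 1 fell. Their median difference was 0.26, against -0.02 over all genes. Beside Abcc3 these were Abcb1a (1.23), a drug efflux pump, Ugt2b1 (1.21), a glucuronosyltransferase, Por (1.06), the electron donor of all microsomal cytochromes P450, Ces2c (0.96), a carboxylesterase, Aldh1a1 (0.92), an aldehyde dehydrogenase, and Ephx1 (0.38), microsomal epoxide hydrolase. Por read 10.91, 10.55 and 10.73 in control rats and 11.64, 11.87 and 11.87 in treated rats, with a difference of 1.06 ± 0.27 (adjusted p = 0.016). Ugt2b1 read 11.57, 11.67 and 11.46 against 13.03, 12.68 and 12.63, with a difference of 1.21 ± 0.20 (adjusted p = 0.00040). In both genes every treated rat lay above every control. Cyp2c7, a retinoid-oxidising P450, fell by 0.65, and by 0.33 without 1,4-dioxane rat 3 (adjusted p = 0.27, limma).

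Tested P450 genes of the Cyp3a family did not pass the test. Named after their values were seen, Cyp3a2 differed by 0.07 and Cyp3a23-3a1, an oxidase inducible through PXR, by 0.27. Cyp3a9 differed by -1.88 ± 0.90 with control rats between 7.61 and 10.07. Cyp2e1, the P450 of small solvents and ethanol, differed by 0.22 (adjusted p = 0.096), and of 15 genes of solvent and alcohol metabolism Aldh1a1 alone was called, with a median of 0.01. The count of risen CAR and PXR targets rested on each rat: it was 5 without control rat 1, 1 without control rat 2, 2 without control rat 3, and 4, 2 and 2 without 1,4-dioxane rats 1, 2 and 3.

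Promoters are shown for 4 of these targets, all of which rose. They are the called members with the widest differences that have an entry among the RefSeq promoters (build GRCr8, where 7 of the 8 called have one). Each promoter window is the 250 bases before the transcription start, read 5' to 3' on the gene's strand. Abcb1a lies at chr4:26397649-26397898 (minus strand), Ugt2b1 at chr14:21378632-21378881 (plus), Por at chr12:26635810-26636059 (minus) and Ces2c at chr1:270376951-270377200 (plus). Capitals mark the nuclear receptor half-site AGGTCA, or TGACCT where it lies on the opposite strand.
Abcb1a: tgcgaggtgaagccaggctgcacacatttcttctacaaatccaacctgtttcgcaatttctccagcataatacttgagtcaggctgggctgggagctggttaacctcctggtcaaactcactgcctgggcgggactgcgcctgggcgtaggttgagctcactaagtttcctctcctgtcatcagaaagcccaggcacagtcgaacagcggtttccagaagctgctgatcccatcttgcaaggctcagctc
Ugt2b1: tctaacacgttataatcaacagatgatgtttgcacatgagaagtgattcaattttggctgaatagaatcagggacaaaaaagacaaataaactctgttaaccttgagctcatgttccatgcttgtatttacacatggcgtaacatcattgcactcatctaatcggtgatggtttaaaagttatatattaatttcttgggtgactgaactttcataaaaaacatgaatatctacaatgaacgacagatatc
Por: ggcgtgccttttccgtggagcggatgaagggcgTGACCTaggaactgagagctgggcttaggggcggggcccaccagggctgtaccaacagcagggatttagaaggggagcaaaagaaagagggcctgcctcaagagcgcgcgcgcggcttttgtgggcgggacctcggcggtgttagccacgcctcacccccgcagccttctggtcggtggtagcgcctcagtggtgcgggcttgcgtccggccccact
Ces2c: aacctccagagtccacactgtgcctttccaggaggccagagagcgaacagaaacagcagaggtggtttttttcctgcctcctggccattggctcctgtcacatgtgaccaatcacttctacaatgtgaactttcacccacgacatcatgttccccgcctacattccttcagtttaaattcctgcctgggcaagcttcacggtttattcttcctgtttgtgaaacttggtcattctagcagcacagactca
Only the Por window among these 4 held the half-site, 217 to 212 bases before the start. It occurs in 13.7% of 27457 RefSeq promoter windows of this length. Over the 7 called members with an entry it was in 2, Por and Cyp2c7. The half-site was searched after the values were seen. The other motifs searched on both strands were in none of the 7: CACGTG (E-box, 5.79% of all windows), TTATGTAA and TTACGTAA (D-boxes, 0.816% and 0.113%), TGATGCAA (amino acid response element, 0.656%) and TGACGTCA (cAMP response element, 1.7%). A match is a run of letters and no evidence of binding.

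Genes of glucose production and of the glucocorticoid response had a median of 0.48. Against 1.89% of all genes higher and 3.88% lower, 7 of 24 tested rose and none fell. Beside Fkbp5 and Lpin1 they were Igfbp1 (1.50), which binds insulin-like growth factors and is held down by insulin, Tat (1.34), Klf15 (1.33), a transcription factor of amino acid breakdown, Ppargc1a (1.32), a coactivator of gluconeogenic genes, and Tsc22d3 (1.20), the glucocorticoid-induced leucine zipper. Igfbp1 read 11.37, 11.94 and 11.90 in control rats and 13.32, 13.30 and 13.09 in treated rats. Ppargc1a read 5.92, 6.30 and 5.73 against 7.26, 7.38 and 7.28, with a difference of 1.32 ± 0.32 (adjusted p = 0.011). Every treated rat was above every control in both. Tsc22d3 read 10.76, 10.22 and 10.19 against 12.01, 11.49 and 11.27. In Klf15 control rat 1, at 10.88, lay next to the treated rats (11.22, 11.28 and 10.93) and the other controls at 9.27 and 9.31. Pck1, the gluconeogenic carboxykinase, differed by 0.30 and was not called. The count of risen genes was 4 without control rat 2, 3 without control rat 3 and 8 without control rat 1. Fitted in the nongenotoxic set alone 7 rose and 1 fell. With all 6 controls of the study after quantile normalization 10 rose and 1 fell. The added controls belong to the genotoxic set, which may have been normalized apart. The list median was -0.03 for 1,4-dioxane short minus clofibrate short and -0.05 for 1,4-dioxane short minus ethionine short.

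Of 22 tested genes that depend on growth hormone 5 fell and 1 rose, with a median of -0.29. Over all genes 3.88% fell and 1.89% rose, so that falls were also the more frequent there. The list was not split into genes that growth hormone raises and genes that it lowers. Its counts and median thus give no direction for the programme as a whole. Beside Obp3 the fallen ones were Onecut1 (-3.36), a liver transcription factor, Stac3 (-3.16), an adaptor best known from muscle, Socs2 (-2.77), a feedback inhibitor of the growth hormone receptor, and Dhrs7l1 (-2.34), a short-chain dehydrogenase. Onecut1 read 10.53, 10.92 and 10.74 in control rats and 6.48, 9.96 and 5.65 in treated rats, so that treated rat 2 lay close to the controls. Without 1,4-dioxane rat 1 its difference was -2.92 and without rat 3 -2.51, with adjusted p of 0.057 and 0.066 (limma). Stac3 read 11.33, 11.79 and 11.86 against 7.21, 8.73 and 9.58, with no overlap. Socs2 read 7.09, 9.33 and 9.53 against 6.00, 6.39 and 5.24, and control rat 1 was the control nearest to the treated rats. Without that rat the difference in Socs2 was -3.55. Dhrs7l1 read 11.30, 13.63 and 13.54 against 10.08, 9.65 and 11.71, so that control rat 1 lay among the treated rats. Its call was lost without 1,4-dioxane rats 1 or 2 or control rats 2 or 3, at adjusted p of 0.16 to 0.21 (limma).

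Sult2a6, a hydroxysteroid sulfotransferase, rose by 2.69 ± 0.41 (adjusted p = 0.00020) from 11.51, 9.68 and 9.49 to 12.88, 12.96 and 12.92. Igf1, the main endocrine product of growth hormone in liver, differed by -0.21, and Cyp2c11, the male-specific P450, by -0.15; neither was called. Igf1 has 3 tested probe sets, of which 1 was called, with differences from -0.80 to -0.21. Without 1,4-dioxane rat 1 the count of fallen growth hormone dependent genes was 2. The wider list of UGT2B and sulfotransferase genes had 4 of 15 higher, Ugt2b, Sult2a6, Ugt2b1 and Sult1b1 (0.36), and 1 lower, Papss2 (-0.65), which makes the sulfate donor. Papss2 has 2 tested probe sets (-0.65 and -0.11), of which 1 was called. The count of 4 risen genes held when any of the 6 rats was left out.

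**Figure D3:**
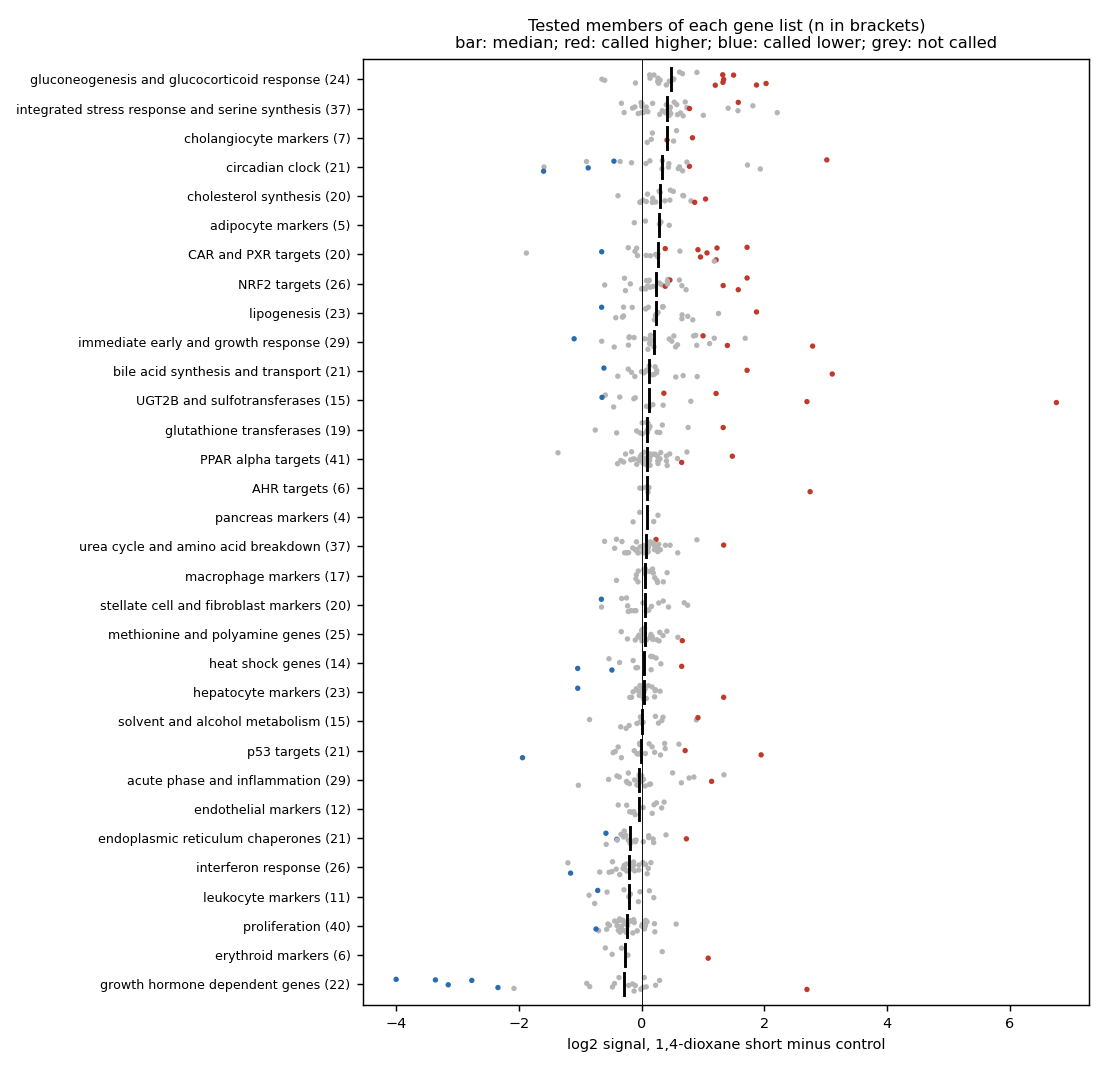
Each row is 1 of 32 gene lists with the number of tested members, and each point 1 member at its log2 difference of 1,4-dioxane short minus control (horizontal axis); red and blue points were called higher or lower, grey points were not, and the bar is the list median. Red points gather for gluconeogenesis and glucocorticoid response (7 of 24) and CAR and PXR targets (7 of 20), and blue points lie far left for growth hormone dependent genes (5 of 22).

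The circadian clock genes split the control rats. Of 21 tested, 2 rose, Usp2 (3.02), a deubiquitinase of the clock output, and Tef (0.78), a clock-output transcription factor, and 3 fell: Npas2 (-1.60), Clock (-0.87) and Leo1 (-0.45), the last a transcription elongation factor and not a core clock gene. The list median was 0.34. Tef has 2 tested probe sets (0.22 and 0.78), of which 1 was called. Clock has 3 tested probe sets, from -0.87 to -0.30, of which 2 were called. Usp2 read 8.86, 5.71 and 6.00 in control rats and 10.17, 9.97 and 9.48 in treated rats. Npas2, which pairs with Bmal1, read 7.91, 8.70 and 8.60 against 6.57, 6.61 and 7.22. Clock read 9.08, 9.86 and 9.76 against 8.55, 8.48 and 9.05. In all 3 control rat 1 was the control nearest to the treated rats. Npas2 was not called without 1,4-dioxane rats 1 or 2 or control rats 2 or 3 (adjusted p of 0.089, 0.071, 0.097 and 0.099, limma), and of the 6 fits that leave out 1 rat Leo1 was called in the one without 1,4-dioxane rat 3.

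In Bmal1, the central activator of the clock, control rat 1 lay among the treated rats. Its values were 5.20, 7.97 and 8.07 in controls and 5.42, 4.88 and 6.17 after 1,4-dioxane. Dbp, a direct output of Bmal1 and Clock, read 9.93, 6.91 and 7.23 against 9.65, 10.42 and 9.80. Neither was called (adjusted p of 0.069 and 0.16), and both were named after their values were seen. Over the 21 clock genes the median size of the difference from the treated mean was 0.28 for control rat 1, 0.75 for control rat 2 and 0.74 for control rat 3. Without control rat 1, 6 clock genes rose and 3 fell, and Usp2 differed by 4.02. Without control rat 2 or control rat 3, none rose and 1 fell. Autopsy times of day are not given in the sources used here. Their part in the differences between treated and control rats cannot be told apart from the treatment. Their part in the split among the control rats was not tested.

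The bile acid list held a gene that also split the control rats. Cyp7a1, the rate-limiting enzyme of bile acid synthesis and a gene with a strong daily rhythm, read 12.54, 7.91 and 7.53 in control rats and 13.22, 12.36 and 11.71 in the 1,4-dioxane rats. Control rat 1 lay within the treated range. The difference was 3.11 ± 0.94 (adjusted p = 0.045), 4.71 without control rat 1, and not called when any of the other 5 rats was left out. Abcc3 also rose in this list, and Nr1h4, the bile acid receptor, fell by 0.62. The other 18 of 21 bile acid genes were not called, and the list median was 0.12.

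**Figure D4:**
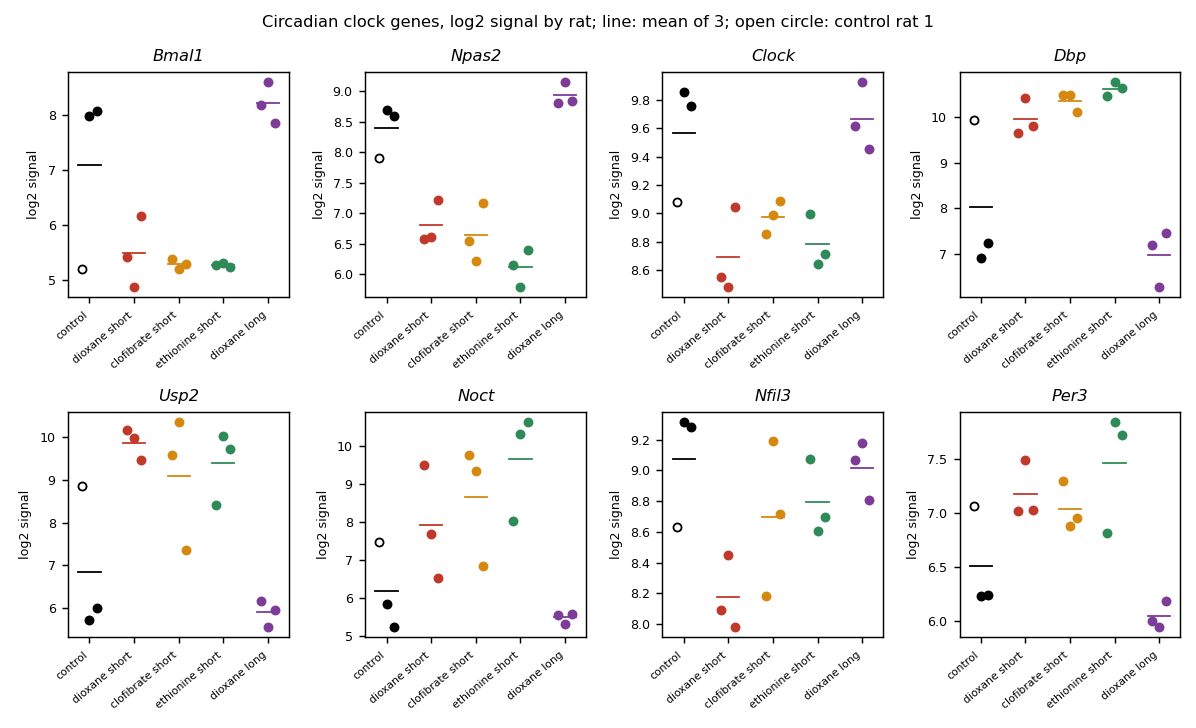
Log2 signal of each rat (vertical axis, own scale for each gene) for 8 clock genes in control, 1,4-dioxane short, clofibrate short, ethionine short and 1,4-dioxane long rats; lines are means of 3 and the open circle is control rat 1. In Bmal1 that rat (5.20) lies with the short groups, and the other controls (7.97 and 8.07) with the long group.

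Antioxidant and damage genes changed in part. Of 26 NRF2 targets 5 rose and none fell, with a median of 0.24: Abcc3, Slc7a11 (1.57), the cystine importer for glutathione synthesis, Gsta3 (1.33), a glutathione transferase, Tkt (0.46), transketolase of the pentose phosphate path, and Ephx1. Slc7a11 read 6.14, 4.70 and 4.73 in controls and 7.61, 6.24 and 6.44 in treated rats. Control rat 1 was within 0.10 of the lowest treated rat, and without 1,4-dioxane rat 1 the difference was 1.15 (adjusted p = 0.053, limma). The count was 1 without 1,4-dioxane rat 3, control rat 2 or control rat 3, and 3 without 1,4-dioxane rat 1. Abcc3 and Ephx1 are also counted among the CAR and PXR targets. The other 21 NRF2 targets were not called, among them Nqo1, Srxn1 and Gpx2, named after their values were seen. The 1,4-dioxane mean minus control rats 1, 2 and 3 was -0.11, 0.10 and 0.20 for Nqo1. It was 0.03, -0.02 and 0.05 for Srxn1, and 1.01, 0.59 and 0.57 for Gpx2. Of 19 glutathione transferases only Gsta3 was called.

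Of 21 p53 targets Gadd45a and Sesn1 (0.71), a stress-induced regulator of growth signalling, rose, and Rprm (-1.94), a cell cycle arrest gene, fell; the median was -0.01. Rprm read 4.85, 7.34 and 7.23 in controls and 4.27, 4.62 and 4.70 in treated rats, with control rat 1 next to the treated ones. It was not called when any of the other 5 rats was left out. The core p53 targets Cdkn1a, a cell cycle inhibitor, and Mdm2, which degrades p53, differed by 0.61 and 0.31 and were not called; they are named outside the rule. In Cdkn1a control rat 1 read 7.27 and the other controls 8.95 and 8.77, against 8.92, 8.30 and 9.59. Of 40 proliferation genes none rose and Mcm4, a subunit of the replication helicase, fell (-0.74), with a median of -0.25. Of 25 genes of methionine and polyamine metabolism Odc1, ornithine decarboxylase, rose (0.66).

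Immediate early genes varied among the treated rats. Of 29 tested 3 rose, Egr1 (2.79), a serum-induced transcription factor, Ccn2 (1.40), a matricellular growth factor, and Zfp36 (1.00), an RNA decay factor, and Id2 (-1.10), an inhibitor of helix-loop-helix factors, fell. Egr1 read 7.79, 8.81 and 8.84 in control rats and 12.87, 10.31 and 10.62 in treated rats. Myc, not called, read 7.25, 7.28 and 7.23 against 10.37, 8.62 and 7.83. In both genes 1,4-dioxane rat 1 was the highest. Without that rat none of the 29 rose and Egr1 differed by 1.98 (adjusted p = 0.080, limma), and without rat 3, the lowest in Myc, 5 rose. When any single control rat was left out, 1 gene rose.

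The other short groups of the set were compared with 1,4-dioxane short directly. No gene was called between 1,4-dioxane short and clofibrate short (0% of 10660), where clofibrate is a lipid-lowering activator of PPAR alpha. At an unadjusted p under 0.05 limma found 1097 genes, and the smallest adjusted p was 0.071, for Prpf4b, a kinase of the splicing machinery. Prpf4b read 8.01, 8.71 and 8.74 after 1,4-dioxane and 9.14, 9.88 and 9.34 after clofibrate. This count does not show that the groups were alike. The 24 genes named above were chosen with the same 1,4-dioxane short rats, so their values here are not independent of that choice. Over these 24 genes the differences from clofibrate ran from -1.56 to 1.35, and for 17 of 24 the 95% interval held 0. The median half-width of those intervals was 0.79, against 0.27 over all genes. For Abcc3 the interval was -0.89 to 0.86, and for Fkbp5 0.61 to 2.08. For Slc34a2 it was -2.49 to -0.63. Without 1,4-dioxane rat 3 there were 50 called genes, and 4 and 2 without clofibrate rats 1 and 2.

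Ethionine, a toxic analogue of methionine, differed from 1,4-dioxane in 93 genes (0.872%), of which 31 were higher and 62 lower after 1,4-dioxane. Those higher were led by Fkbp5, Slc7a11, Fmo2 and Acer2. Fkbp5 read 10.20, 10.84 and 10.90 after 1,4-dioxane and 8.59, 7.59 and 8.47 after ethionine, a difference of 2.43 ± 0.36 (adjusted p = 0.0017). Slc7a11 read 7.61, 6.24 and 6.44 against 5.72, 4.89 and 5.00, a difference of 1.56 ± 0.33 (adjusted p = 0.017). Over the 24 named genes, chosen with the same 1,4-dioxane short rats, the differences from ethionine ran from -1.39 to 2.43. For 14 of 24 the 95% interval held 0. At an unadjusted p under 0.05 limma found 1512 of 10660 genes. In Fkbp5 and Slc7a11 the groups did not overlap. Fmo2 differed by 1.43 and Acer2 by 1.23. The lower ones were led by Zeb2 (-1.10), a zinc finger repressor, Rb1 (-1.02), the retinoblastoma protein, Kmt2e (-0.97), a histone-binding SET domain protein, and Pard6g (-0.91), a polarity protein. In all 4 lower genes ethionine lay above the 1,4-dioxane rats. The count rested on single rats: it was 2 and 7 without ethionine rats 2 and 3, 645 without ethionine rat 1, and 199, 25 and 16 without 1,4-dioxane rats 1, 2 and 3.

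The values against the same 3 control rats are given side by side, since these comparisons share those rats. The number of called genes was 616 for 1,4-dioxane short, 322 (3.02%) for clofibrate short, 573 (5.38%) for ethionine short and 18 (0.169%) for 1,4-dioxane long. Gadd45a differed from control by 1.95, 1.81, 2.27 and -0.40 in that order. Cyp1a1 differed by 2.75, 2.31, 1.49 and -0.08, and Obp3 by -4.00, -2.99, -2.75 and -1.49. Fkbp5 differed by 2.03, 0.68, -0.40 and -0.53, and was called in the first of these groups. Slc7a11 differed by 1.57, 0.36, 0.01 and -0.05, also called in the first.

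**Figure D5:**
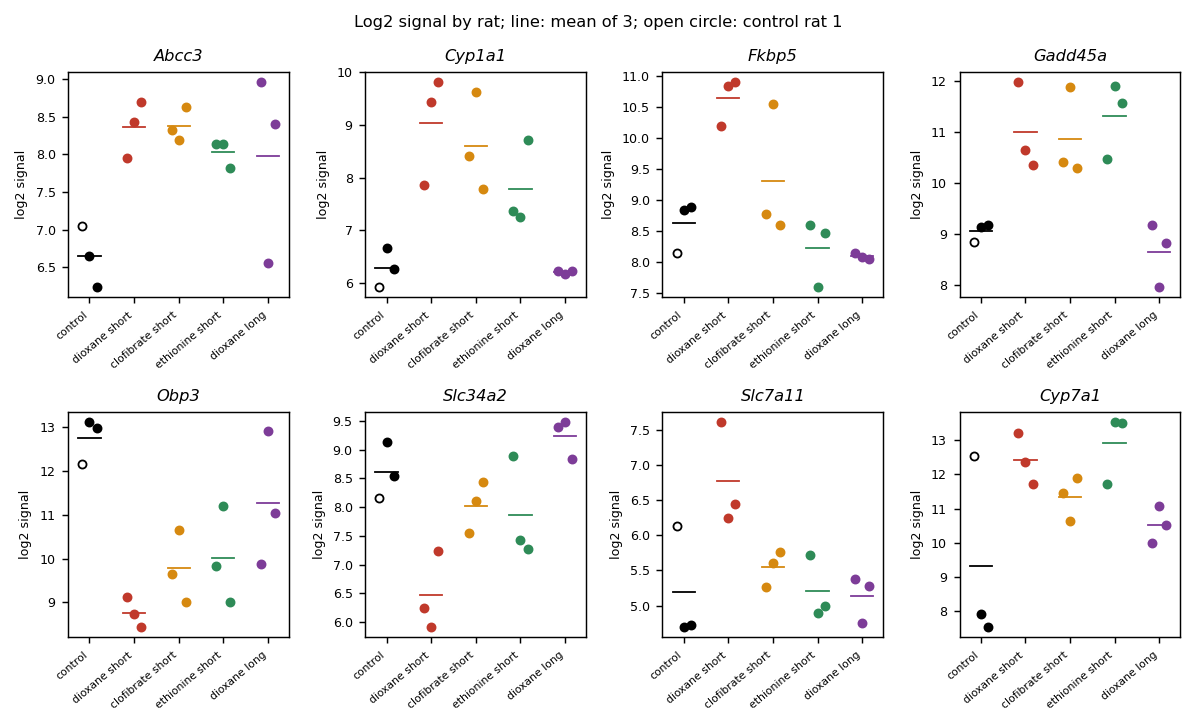
Log2 signal of each rat (vertical axis, own scale for each gene) for 8 genes in 5 groups of 3 rats; lines are means and the open circle is control rat 1. Fkbp5 (10.20 to 10.90) and Slc7a11 (6.24 to 7.61) have their highest means in 1,4-dioxane short, though 1 clofibrate rat overlaps in Fkbp5, Gadd45a is high in all 3 short groups, and Cyp7a1 shows control rat 1 at 12.54.

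After the long course of 1,4-dioxane most of the leading genes had other values than after the short one. In all 587 genes (5.51%) were called between long and short, 342 higher and 245 lower after the long course. Of the 24 named genes 16 were called in this contrast, which uses the same 3 short rats that chose them. Cyp1a1 read 6.24, 6.17 and 6.23 after the long course, Fkbp5 8.14, 8.07 and 8.05, and Gadd45a 9.18, 7.96 and 8.81. Cyp1a1 thus differed by -2.83 ± 0.60, Fkbp5 by -2.56 ± 0.36 and Gadd45a by -2.35 ± 0.42 from the short course. Ugt2b stayed high at 13.24, 13.38 and 13.55. Abcc3 read 8.96, 6.56 and 8.40, so that 2 long rats matched the short ones and 1 the controls.

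The 4 highest and 4 lowest genes of this contrast included the clock genes Bmal1, Usp2 and Dbp, beside Cyp1a1 and Fkbp5. Bcl6, a transcriptional repressor that opposes growth hormone signalling, differed by 2.91, Slc34a2 by 2.77, Bmal1 by 2.72 and Slc6a6 by 2.46. Usp2 differed by -3.97 and Dbp by -2.99. Bmal1 read 8.17, 8.59 and 7.86 after the long course, next to control rats 2 and 3 at 7.97 and 8.07. The count was 252 without 1,4-dioxane long rat 2, 353 and 362 without long rats 1 and 3, and 300 and 368 without short rats 1 and 2.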

How the data were processed

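Liver RNA of 65 rats, 1 array each, was hybridised to Affymetrix rat arrays, with biotin labelling after the one-cycle protocol, per the labels' protocols. The authors deposited log2 signals; RMA, a method that corrects background, normalizes by quantiles and summarises probes, is named in the submitters' processing notes. The lowest and highest values differ between the genotoxic, nongenotoxic and test sets (lowest 3.33 to 3.41, 3.23 to 3.30 and 2.28 to 2.40), so sets may have been normalized apart. The compared groups all belong to the nongenotoxic set. The spread was estimated with the genotoxic arrays as well. Ugt2b levels are described over all 65 rats, and an alternative fit pools the controls of the genotoxic and nongenotoxic sets. Array signals carry no read depth, and 3 rats a group limit the precision. The p-values test a mean difference against a spread between rats that is estimated over all groups of the 41 arrays fitted. The errors and p-values thus do not rest on the compared rats alone. For Ugt2b the standard error was 0.92, while the standard deviations were 0.42 in the nongenotoxic controls and 0.03 in the short dioxane rats. Its adjusted p (limma) was 6.9e-05 in this fit and 3.01e-15 in the nongenotoxic set alone.

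Of 31099 probe sets, 20826 have 1 gene symbol in the platform annotation, 436 several and 9780 none; 57 are control probe sets. A gene was its single-symbol probe set with the highest mean over all arrays (14217 genes). Abcb1a (0.92 and 1.23), Slc6a6 (-1.65 and -0.99) and Hsd17b7 (0.77 and 0.86) each had 2 tested probe sets, of which 1 was called against control. Genes above the table median, 6.21, in at least 2 of the 41 training arrays (genotoxic and nongenotoxic sets) were tested (10660). R 4.3.3 with limma 3.58.1 fitted 1 mean per group over the 41 arrays, so that groups share 1 estimate of the spread, with eBayes, two-sided tests and Benjamini-Hochberg adjustment over all genes tested. Errors are standard errors from this fit. The fit was tested on simulated data. Promoter windows were searched with Python 3.11.15.

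Named genes are the 12 highest and 12 lowest called genes (4 and 4 for the other 3 comparisons) without overlap of the groups and with rats of a group at most 2 log2 units apart. Also named are the called members of each list and, where none was called, the 2 with the largest difference. The plan limited called members to 6 a list, but lists with more are given in full. The rule passed over called genes with wider spread. The 32 lists hold 745 genes, of which 667 are on the array and 618 were tested; the others were not analysed here. The compared groups, the members and the lists were chosen with earlier results of these data known, so no count over a list is independent evidence. Replicate numbers did not pair the rats and were not used as a block. Alternatives covered filters, probe set averaging, empirical Bayes settings, normalization, the arrays fitted, the block and leaving out each rat.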

Additional observations from a re-analysis of the deposited data

Results flagged for a closer look

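In limma's test of 1,4-dioxane long minus short, with Benjamini-Hochberg adjustment, 16 of the 24 named genes were called, where 5.51% of all genes were. The short rats that chose these genes enter the contrast, so the count is no independent evidence of a differing effect. The log2 difference was -2.83 for Cyp1a1, -2.56 for Fkbp5, -2.35 for Gadd45a, -2.27 for Fmo2, -2.12 for Mfsd2a, -1.92 for Lpin1, -1.52 for H19, -1.49 for Acer2, -1.44 for Rapgef5 and -1.38 for Igfbp2. It was 2.77 for Slc34a2, 2.52 for Obp3, 2.46 for Slc6a6, 2.13 for Npas2, 1.63 for Dipk2a and 1.57 for Irgm. No test for a single outlying value was run on groups of 3; control rat 1 is described in the report by counts of genes.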

How the results depend on the processing

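The called genes of 1,4-dioxane short against control numbered 295 when only the compared groups were fitted, and 1312 with all 6 controls of the study after quantile normalization of both sets (49.2% higher, against 32.8%). Those 6 controls include rats of the genotoxic set, which may have been normalized apart. Leaving out 1 rat gave 205 to 578. Against clofibrate short the count was 3 after quantile normalization, 7 in the nongenotoxic set alone and 0 to 50 without 1 rat. Against ethionine short it was 0 with only the compared groups, 145 in the nongenotoxic set alone and 2 to 645 without 1 rat. For 1,4-dioxane long against short it was 252 to 487 without 1 rat. The causes were not tested, beyond the fewer arrays that some of these fits use. The remaining settings stayed within 1.5 times the count, among them a filter at the median of all 65 arrays that was chosen after seeing the data.

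Replicate numbers did not pair the rats (correlations of same-numbered deviations -0.032 to 0.127 against control). With the replicate number as a block the counts were 576, 0, 74 and 561 in the order above. For the 24 named genes, 352 of 379 alternative values kept direction and call, 27 kept direction only and 0 reversed. Of 65 called listed genes 16 were called without any 1 rat and 49 lost the call in at least 1 such fit.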

Other observations

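Protein-folding genes were called in both directions, against 1.89% of all genes higher and 3.88% lower. Of 14 heat shock genes Hspa1a, an inducible chaperone, rose (0.65), while Hsph1 (-1.04), its nucleotide exchange factor, and Chordc1 (-0.49), a co-chaperone of Hsp90, fell. Of these 3 only Hsph1 was called whichever of the 6 rats was left out. Hsph1 read 10.30, 10.45 and 10.40 in control rats and 9.26, 9.06 and 9.70 after 1,4-dioxane. It has 2 tested probe sets (-1.04 and -0.67), of which 1 was called. Of 21 endoplasmic reticulum genes Herpud1, a factor of protein degradation, rose (0.73). Xbp1 (-0.58), a regulator of the unfolded protein response, and Calr (-0.40), a chaperone, fell. Of the 6 fits that leave out 1 rat, Herpud1 was called in 1, Xbp1 in 2 and Calr in 4. Xbp1 was also not called when the nongenotoxic set was fitted alone (adjusted p = 0.10, limma). Of 37 genes of the integrated stress response and serine synthesis 2 rose, Slc7a11 and Slc3a2 (0.78), its partner subunit, while the list median was 0.42. That count was 8 without control rat 1, 0 without 1,4-dioxane rat 1, and 1 without 1,4-dioxane rat 3, control rat 2 or control rat 3. It was 14 with all 6 controls of the study after quantile normalization. The controls added there are of the genotoxic set, which may have been normalized apart. Phgdh, the entry enzyme of serine synthesis, had the largest difference there (2.21, adjusted p = 0.063, limma) and read 9.55, 7.98 and 7.44 in controls against 10.80, 10.36 and 10.44; it is named after its values were seen.

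Lipid and amino acid lists held 1 or 2 risen genes each, against 1.89% higher and 3.88% lower over all genes. Of 41 PPAR alpha targets Cd36, a fatty acid importer (1.48), and Aqp7, a glycerol channel (0.65), rose, with a list median of 0.09. Cd36 read 7.90, 7.12 and 7.24 in controls and 8.74, 9.04 and 8.91 after 1,4-dioxane. Of 20 cholesterol synthesis genes Sqle (1.04) and Hsd17b7 (0.86), both enzymes of the sterol path, rose, with a median of 0.29; none rose without 1,4-dioxane rat 1, 1,4-dioxane rat 2, control rat 2 or control rat 3, and 3 rose without control rat 1. Of 23 lipogenesis genes Lpin1 rose and Mlxipl (-0.65), a carbohydrate-sensing transcription factor, fell. Of 37 urea cycle and amino acid genes Tat and Arg1, arginase (0.23), rose.

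In immune and other cell type lists single genes were called, where 5.78% of all genes were. Of 29 acute phase and inflammation genes Il6r, the interleukin 6 receptor, rose (1.14; 10.19, 10.06 and 10.34 in controls against 11.54, 11.42 and 11.04). Of 26 interferon genes Igtp, an interferon-induced GTPase, fell (-1.16; 9.24, 9.47 and 9.50 against 8.15, 8.33 and 8.25), with a list median of -0.20. Of 20 stellate cell and fibroblast markers Pdgfrb fell (-0.66) on 1 of its 2 tested probe sets. The other probe set gave 0.10 and was not called. The median of that list was 0.05, and Timp1 (0.75) and Mgp (0.69) differed the other way without being called. Of 6 erythroid markers Tfrc, the transferrin receptor, rose (1.08). The erythroid median was -0.28, and Alas2 differed by -0.59 without being called. None of 17 macrophage, 12 endothelial, 4 pancreas or 5 adipocyte markers was called by limma's adjusted p; the largest differences there were 0.41 for C1qb, -0.41 for Gpnmb, -0.38 for Eng, 0.36 for Lyve1, 0.26 for Cel, 0.20 for Ins1, 0.45 for Cidea and 0.31 for Plin4.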
